A study of Danio rerio with 12 samples.

Results

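The genes described here are those of the mitochondrial respiratory chain and ATP synthase that are encoded in the zebrafish nucleus, with their assembly factors and with slc25a4, the carrier that exchanges ADP for ATP across the inner membrane. They were taken by symbol, and the rule was set with earlier results of these data known. Taken were slc25a4 and every gene whose symbol starts with nduf (complex I), sdha, sdhb, sdhc or sdhd (complex II), uqcr (complex III), cox4, cox5, cox6, cox7 or cox8 (complex IV), or atp5 (ATP synthase, complex V). A probe was assigned to a gene through the RefSeq accession in the array files. The rule found 110 genes in the gene table and 90 of them on the arrays, read by 156 probes, among 12849 named genes with a usable probe. All 90 had at least 1 usable probe (155 probes in all). They comprised 34 complex I subunits and 4 complex I assembly factors, 5 complex II subunits and 3 assembly factors, 7 complex III subunits, 15 complex IV subunits, 3 members of the NDUFA4 family, 16 ATP synthase subunits, 2 ATP synthase inhibitors and slc25a4. The 20 genes without a probe by accession were atp5f1e, atp5mf, cox4i1l, cox5ab, cox5bb, cox7a2b, cox8a, cox8b, ndufa9b, ndufab1b, ndufaf3, ndufaf4, ndufaf6, ndufaf8, ndufb1, ndufb3, ndufc1, ndufv3, sdhaf1 and uqcr10. No subunit encoded in the mitochondrial genome was measured (0 genes).

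Complexes I and II take electrons from NADH and succinate, complex III passes them from ubiquinol to cytochrome c, and complex IV passes them on to oxygen. Complexes I, III and IV pump protons as they do so, and ATP synthase makes ATP from the gradient. In vertebrates each complex except complex II mixes a few subunits made in the mitochondrion with many made from nuclear genes, several of which have isoforms that differ between tissues. Fish eggs bring maternal mitochondria and maternal transcripts into the embryo, and the contracting muscle and heart of the day-old embryo are rich in mitochondria.

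The study injected wild-type AB zebrafish embryos with morpholinos, synthetic oligonucleotides that bind a chosen RNA and keep it from being translated or spliced. It compared embryos given a control morpholino with embryos given morpholinos against PCSK7, a proprotein convertase of the secretory pathway, and against p53. Each of both treatments was sampled at 6 h after fertilization (gastrulation) and at 24 h, which makes 4 groups, each with 3 Agilent 1-colour arrays hybridised with Cy3-labelled RNA. Embryos of all groups received 0.25 to 1.0 pmol of each morpholino in the yolk at the 1-cell to 4-cell stage and were kept at 28.5 °C, and each array held RNA from a pool of 18 to 35 whole embryos. The p53 morpholino was given only with the PCSK7 morpholino, so their effects cannot be told apart. No named probe reads pcsk7 (0 probes), so the level of the target is not analysed here and the knockdown was not checked. Nothing in the labels places replicates in separate clutches, so the p-values rest on the variation among pools, which may be technical.

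The level of a gene is given below as the log2 signal of its brightest usable probe minus the 75th percentile of that array, so a level of 0 is the 75th percentile and levels are compared only within a gene. Changes are differences of these levels with their standard error (SE) from limma with 3 arrays in each group, and a change was called when its p, adjusted over all 36686 usable probes, was under 0.05. The 75th percentile signal lay between 403.4 and 1087, and the number of arrays limits the precision. At 6 h this signal was 403.4 to 512.6 on control and 633.8 to 730 on PCSK7 plus p53 arrays. At 24 h it was 695.4 to 993.3 and 1022 to 1087. Probes well above background numbered 29496 to 29937 per control array and 31129 to 32054 per PCSK7 plus p53 array at 6 h. At 24 h they numbered 33552 to 35651 and 35335 to 35901. Both measures were thus higher in the PCSK7 plus p53 group at 6 h without overlap, and the 75th percentile signal was so at 24 h too. Their part in the results was not tested. Arrays of a group correlated with r from 0.993 to 0.996. The median SD between arrays of a group was 0.08 for the 90 genes and 0.12 for all genes. Gastrula genes and differentiation genes marked the 2 ages as labelled. From 6 h to 24 h in control embryos 6 of 6 gastrula markers fell. In the same span 7 of 7 measured skeletal muscle, 3 of 3 blood and 4 of 4 ionocyte markers rose. The 2 lens, 2 heart and 2 neuron markers measured also rose, while of 3 yolk syncytial layer markers 2 rose and 1 fell. Over all genes 48.1% rose and 43.1% fell. The 6 control arrays lay on 3 slides, each with 1 array of either age. The morpholino arrays of 6 h and of 24 h each lay on a slide of their own and were scanned in a second session. Slide and session therefore cannot be told apart from the morpholino mix, nor slide from age within the morpholino embryos.

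Between 6 h and 24 h almost every respiratory chain gene rose in control embryos. Of the 90 genes, 88 rose and 1 fell, where 48.1% of all genes rose and 43.1% fell. The 3 arrays of either age did not overlap in 88 genes that were higher at 24 h and 2 that were lower, where 48.6% and 43.4% of all genes were so separated. The median change of the 90 genes was 2.12, a 4.34-fold rise, against 0.15 for all genes. The rise was at least 2-fold for 74 genes, at least 4-fold for 47 and at least 8-fold for 21. Because each control slide held both ages, the change could be read within slides, and 88 genes were higher at 24 h on all 3 slides while the other 2 were higher on none. The median rise was 2.17, 2.06 and 2.34 on the 3 slides. In whole-embryo RNA a higher level can come from more RNA per cell or from more cells of a type that uses the gene, and these cannot be told apart. Quantile normalization, which forces the arrays to 1 distribution and lowers the median of all probes to -0.28, gave 82 genes that rose and 4 that fell (ndufs8b, atp5fa1, atp5mc1 and ndufa4a).

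**Figure D1:**
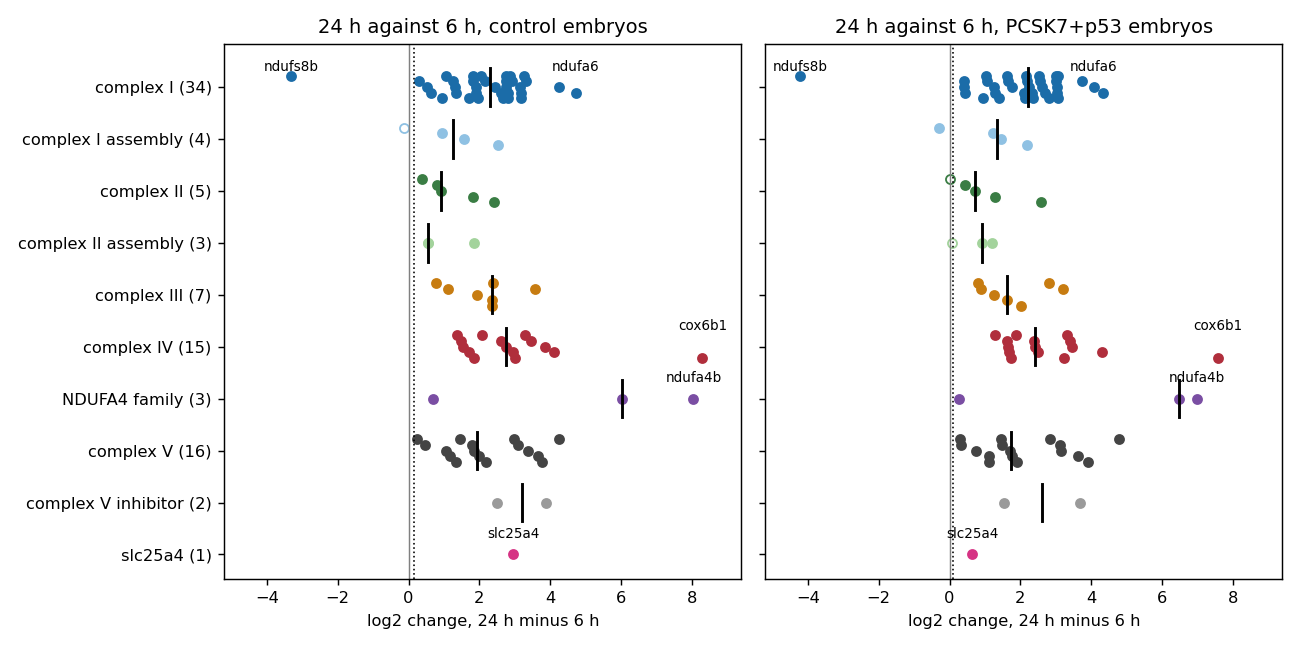
Log2 change from 6 h to 24 h (horizontal axis) for each of the 90 genes by complex (vertical axis, number of genes in brackets), in control embryos on the left and in PCSK7 plus p53 embryos on the right. Filled dots were called, open dots were not, short black lines are medians of a complex and the dotted line is the median of all genes. Complex IV lies wholly above 1 in both panels, and ndufs8b is the gene far to the left.

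Complex I carried 33 of 34 genes upward with a median of 2.29. Its steepest rise was that of ndufa6, an accessory subunit, whose level was 0.93, 0.94 and 0.80 on the 6 h control arrays and 5.63, 5.52 and 5.67 at 24 h, a rise of 4.72 (SE 0.08, adjusted p = 1.25e-12). The accessory subunit ndufs4 rose by 4.25 (SE 0.07). Among core subunits, which hold the flavin, the iron-sulfur clusters or the ubiquinone site, ndufv2 rose by 3.15, ndufs7 by 2.61, ndufs3 by 1.90, ndufs1 by 1.33 and ndufv1 by 0.63. The acyl carrier subunit ndufab1a rose by 1.06. The smallest rises among the other complex I genes were those of ndufa9a (0.29) and ndufc2 (0.52), both accessory subunits.

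The fall was in ndufs8b, 1 of a pair of zebrafish genes for the core iron-sulfur subunit NDUFS8. Its level was -0.12, -0.18 and -0.08 at 6 h and -3.40, -3.60 and -3.32 at 24 h in control embryos, so the ages lay far apart. The fall was 3.31 (-3.31, SE 0.12, adjusted p = 5.44e-10), and its other probe changed by -4.96. The partner ndufs8a rose by 0.95 (SE 0.06) from 2.19, 2.23 and 2.28 to 3.20, 3.13 and 3.22. Both ndufs8b probes were above background on all 12 arrays. The fall was called under every alternative scaling, background, filter, summary and block setting run.

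The median change was 1.26 for the complex I assembly factors and 0.56 for those of complex II, and their difference from the subunits was not tested. The complex I factors ndufaf1, ndufaf5 and ndufaf7 rose by 2.52, 1.56 and 0.96. The change of ndufaf2 was -0.13 and was not called on its brightest probe (adjusted p = 0.0588), while its second probe rose by 3.05. Of the complex II factors, sdhaf4, which works on the flavin subunit, rose by 1.85, sdhaf2 by 0.56 and sdhaf3 by 0.55.

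Complex II, the link to the TCA cycle, had the lowest median of the complexes, 0.91, although all 5 of its genes rose. The flavin subunit sdha rose by 0.91, the iron-sulfur subunit sdhb by 0.79, and the membrane anchors sdhc, sdhda and sdhdb by 2.41, 1.81 and 0.38. The value of sdhda rested on signals near background: its change became -0.15 when the local background was subtracted and 50 added, and it was well above background on 10 of 12 arrays. All 7 complex III genes rose with a median of 2.34. The core proteins uqcrc1 and uqcrc2a rose by 2.34 and 2.36, while uqcrc2b, the other zebrafish copy of the second core protein, rose by 0.79. The Rieske iron-sulfur protein uqcrfs1 rose by 1.12, and the small subunits uqcrq, uqcrb and uqcrh by 3.56, 2.38 and 1.92.

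All 15 complex IV genes rose at least 2-fold, with a median of 2.76. The widest change of the 90 genes was in cox6b1, a subunit that joins the monomers of the enzyme on the side facing the intermembrane space. Its level was -6.99, -6.99 and -7.80 at 6 h, not well above background, and 1.25, 0.99 and 0.88 at 24 h. It was at least 137-fold higher at 24 h, counting from the lowest signal that could be told from background (fitted change 8.30, adjusted p = 1.15e-10). The sister gene cox6b2 was already well above background at 6 h and rose by 2.62. Of the subunit 4 isoforms cox4i1 rose by 2.76 and cox4i2, the isoform linked in mammals to low oxygen, by 2.99. The isoform cox6a2, which mammals use in heart and skeletal muscle, was at least 3.49-fold higher at 24 h, but its change was 0.15 and was not called (adjusted p = 0.179) with the local background subtracted and 50 added. Its partner cox6a1 rose by 3.29. The muscle isoform cox7a1 rose by 1.84, next to 3.47 for cox7a2a and 1.49 for cox7a2l. Of the remaining subunits cox7b rose by 3.87, cox6c by 2.96, cox7c by 2.09, cox5aa by 1.69, cox5ba by 1.53 and cox5b2 by 1.38.

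The NDUFA4 protein was first counted in complex I and later placed in complex IV in mammals, so its 3 zebrafish genes are kept apart here. From 5.57, 5.72 and 5.51 the gene ndufa4a rose by 0.69 to 6.27, 6.22 and 6.37. Its copy ndufa4b went from -8.04, -7.91 and -7.88, below background, to 0.20, 0.13 and -0.02, at least 71.3-fold higher at 24 h. The related ndufa4l2a, a target of low-oxygen signalling in mammals, went from -8.10, -8.05 and -7.96 to -2.04, -2.03 and -1.98, at least 16.4-fold higher.

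Of ATP synthase, all 16 genes rose with a median of 1.92, and the smallest rises were in atp5mc1 and atp5fa1. The alpha and beta subunit genes atp5fa1 and atp5f1b rose by 0.47 and 1.45, and the central stalk genes atp5f1c and atp5f1d by 2.19 and 3.10. The c-ring gene atp5mc1 stood at 5.73, 5.88 and 5.85 at 6 h and 5.99, 5.98 and 6.18 at 24 h, so the ages lay close without overlap, and rose by 0.23 (SE 0.08, adjusted p = 0.0146). Its partners atp5mc3a and atp5mc3b rose by 1.34 and 1.85. The peripheral stalk genes rose more, atp5pd by 4.25, atp5pb by 3.67, atp5po by 2.97 and atp5pf by 1.99. The call for atp5f1b was lost under quantile normalization (0.13, adjusted p = 0.0675). The directions of atp5fa1 and atp5mc1 depended on scaling: quantile normalization gave -0.66 and -0.77, cyclic loess -0.26 and -0.36, and the authors' deposited table -0.45 and -0.52. Without control 6 h replicate 1 or control 24 h replicate 3 the rise of atp5mc1 was not called (adjusted p = 0.0608 and 0.0606). The inhibitor genes atp5if1a and atp5if1b, whose product stops the enzyme from running backwards, rose by 2.51 and 3.89, and slc25a4 rose by 2.96.

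In the PCSK7 plus p53 embryos the same span of development gave 86 genes that rose, 2 that fell and 2 that were not called, with a median of 1.90, where 47.6% of all genes rose and 43.3% fell. The arrays of both ages did not overlap in 85 genes that were higher at 24 h and 2 that were lower, where 47.8% and 43.9% of all genes were so separated. The falls were in ndufs8b (-4.21) and ndufaf2 (-0.29, second probe 0.95). The genes without a call were sdhdb (0.01) and sdhaf2 (0.07). The lower bounds of the late genes were 82.6-fold for cox6b1, 89-fold for ndufa4b and 24.8-fold for ndufa4l2a. In these embryos slc25a4 rose by only 0.64 (SE 0.16), and this small rise was not called under quantile normalization (0.11) or with local background subtracted (0.03), and it was -0.20 in the authors' deposited table.

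At 6 h the morpholino mix was accompanied by changes in both directions. Of the 90 genes 30 were higher and 24 lower in PCSK7 plus p53 embryos, where 32.0% of all genes were higher and 30.9% lower. The members were thus called about as often as genes at large, and the median change was 0.07 against -0.004 for all genes. In 4 of the 90 (cox6a2, cox6b1, ndufa4b and ndufa4l2a) the probe was not well above background on all arrays of either 6 h group. Without them 29 were higher and 22 lower of 86. Complex I had 12 genes higher and 12 lower of 34, complex III 3 and 2 of 7, complex IV 3 and 3 of 15, ATP synthase 4 and 6 of 16, and complex II 1 and 0 of 5. Of the 7 assembly factors 5 were higher and none was lower.

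The farthest fall at 6 h was in atp5mc1, a gene for the c-ring of ATP synthase. Its level was 5.73, 5.88 and 5.85 on the control arrays and 4.69, 4.51 and 4.56 on the PCSK7 plus p53 arrays. The groups did not overlap, and the gene fell by 1.23 (SE 0.08, adjusted p = 1.09e-06), with its second probe at -1.38. The complex III core gene uqcrc2a fell by 0.97 (SE 0.08, adjusted p = 4.18e-06) from 1.92, 1.80 and 1.86 to 1.04, 0.84 and 0.77, and its second probe gave the same value. The change in its copy uqcrc2b was -0.03 (adjusted p = 0.671). The complex I gene ndufb8, an accessory subunit of the membrane arm, fell by 0.74 (SE 0.07, adjusted p = 1.16e-05) from 3.51, 3.41 and 3.42 to 2.75, 2.70 and 2.66, and all 4 of its probes were called lower. Smaller falls came in atp5pd of the peripheral stalk (-0.67) and the membrane arm subunit ndufb2 (-0.54).

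The farthest rise at 6 h was in ndufs6, a zinc-binding accessory subunit of complex I. Its level was 1.72, 1.76 and 1.48 on the control arrays and 2.74, 2.69 and 2.69 on the PCSK7 plus p53 arrays, without overlap. It rose by 1.06 (SE 0.08, adjusted p = 4.18e-06), and by 1.13 on its second probe. The ATP synthase inhibitor atp5if1a rose by 0.96 (SE 0.10, adjusted p = 2.62e-05) from 3.70, 3.81 and 3.71 to 4.47, 4.83 and 4.80, while atp5if1b changed by -0.16 (adjusted p = 0.067). The complex II assembly factor sdhaf4 rose by 0.93, the small complex I subunit ndufa1 by 0.87 (3.45 on its dimmer probe), the complex III subunit uqcrq by 0.83 and ndufs8b by 0.78. For ndufs8b the control arrays stood at -0.12, -0.18 and -0.08 and the PCSK7 plus p53 arrays at 0.44, 0.70 and 0.81. At the same age ndufs8a fell by 0.38 (adjusted p = 0.000355), so the members of this pair moved apart. Core subunits of complex I that fell were ndufs7 (-0.52) and ndufs3 (-0.34). The brightest probe of ndufv1 was lower (-0.23, adjusted p = 0.0457), but the mean of its probes was not called (-0.07, adjusted p = 0.429), nor was that probe with a replicate block (adjusted p = 0.0743) or in 8 of the 12 fits that left out 1 array, with the highest adjusted p, 0.159, without control 6 h replicate 1. The core subunit ndufv2 rose by 0.20, and ndufs1 had 0.04 (adjusted p = 0.64). The acyl carrier ndufab1a rose by 0.30. The arrays of both groups did not overlap in 32 members that were higher and 28 that were lower, where 34.4% and 34.2% of all genes were so separated.

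**Figure D2:**
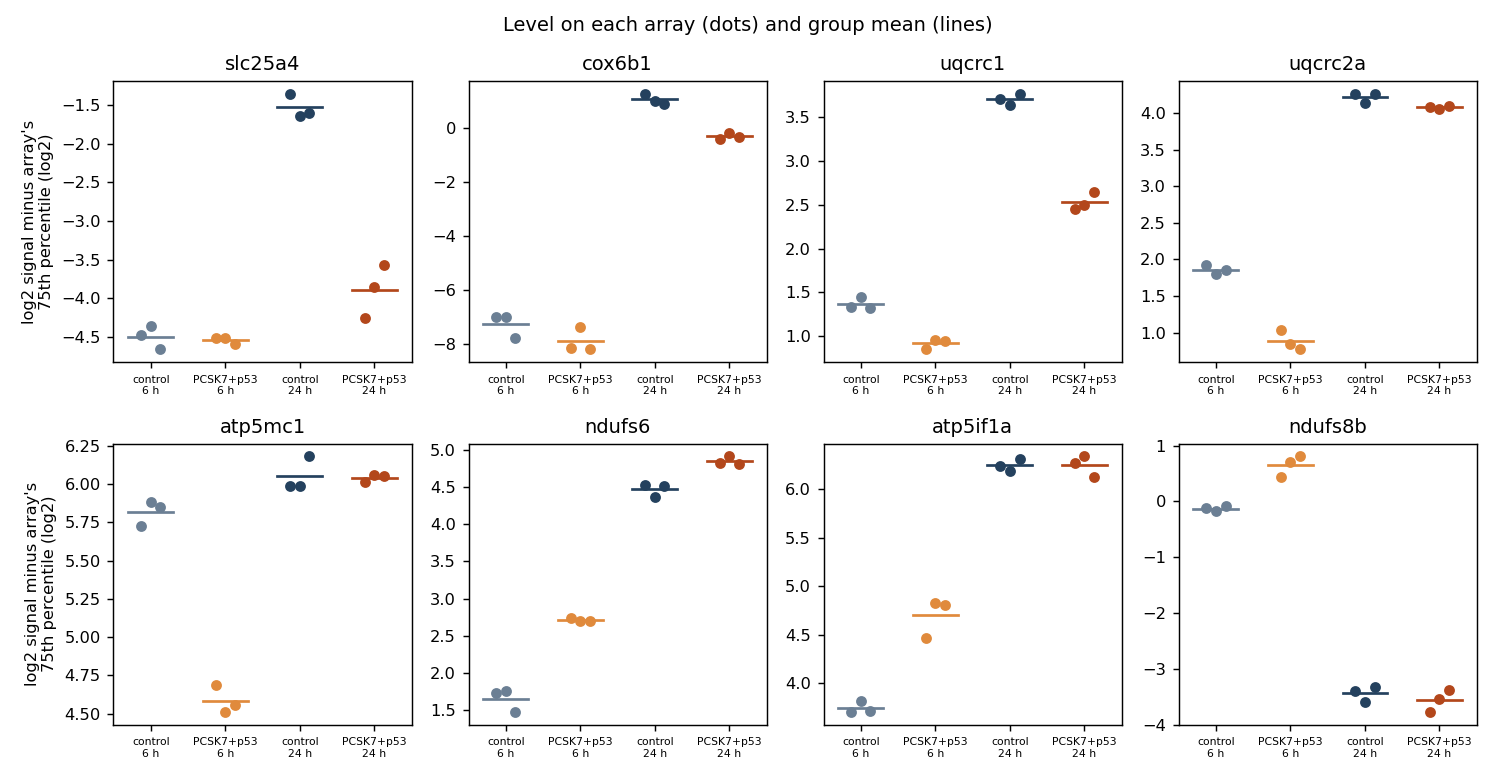
Level on every array for 8 genes, as log2 signal minus the 75th percentile of the array (vertical axes, each gene on its own scale), in the 4 groups (horizontal axes). Dots are arrays and lines are group means. At 24 h the slc25a4, cox6b1, uqcrc1 and uqcrc2a dots of the PCSK7 plus p53 group lie below all control dots. At 6 h those of uqcrc1, uqcrc2a and atp5mc1 do.

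At 24 h 10 genes were higher and 31 lower in PCSK7 plus p53 embryos, where 21.0% of all genes were higher and 25.8% lower. The median change was -0.12 against -0.03 for all genes. This tilt depended on how the arrays were scaled. Quantile normalization gave 20 higher and 16 lower with a median of 0.013, cyclic loess 12 and 20 with a median of -0.035, and the values in the authors' deposited table gave 22 and 17 with a median of 0.019. In the main scaling 14 members were higher and 41 lower without overlap between the groups, where 29.2% and 34.5% of all genes were so separated. Complex by complex, no ATP synthase gene was higher and 9 of 16 were lower, but quantile normalization gave 2 higher and 3 lower. Complex I had 4 higher and 10 lower of 34 (7 and 6 after quantile normalization), complex IV 2 and 5 of 15 (6 and 2), complex III 0 and 2 of 7 (1 and 1) and complex II 0 and 1 of 5 (0 and 1). Of the 7 assembly factors 4 were higher and 1 lower on their brightest probes, and their counts under quantile normalization are not given here. Among the 4 was ndufaf7, whose 2 probes were called in opposite directions. Most of the changes were small: 3 of the 31 falls and none of the rises reached 2-fold.

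Those 3 falls held under every scaling run. The carrier gene slc25a4, the heart and muscle form of the ADP/ATP carrier in mammals, stood at -1.36, -1.64 and -1.60 on the control arrays at 24 h and at -4.25, -3.85 and -3.56 on the PCSK7 plus p53 arrays. The groups lay far apart, and the latter were nearer to the 6 h levels (-4.47, -4.36 and -4.66 in controls). It fell by 2.36 (SE 0.16, adjusted p = 5.95e-06), with values from -2.52 under quantile normalization to -1.80 with local background subtracted, and it was read by 1 probe, above background on all 12 arrays. The related carrier gene slc25a5, which is outside the rule and is expressed widely in mammals, fell by 0.65 (SE 0.08, adjusted p = 0.000121). The complex IV gene cox6b1 fell by 1.36 (SE 0.25, adjusted p = 0.00171), from 1.25, 0.99 and 0.88 to -0.42, -0.20 and -0.35, also on a single probe. The complex III core gene uqcrc1 fell by 1.18 (SE 0.07, adjusted p = 3.9e-06), from 3.71, 3.64 and 3.77 to 2.45, 2.50 and 2.64, and all 3 of its probes were called lower (-1.18, -1.13 and -0.83). Neither cox6b1 nor uqcrc1 had overlapping groups at 24 h, and uqcrc1 was already called lower at 6 h (-0.45).

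Because slc25a4 is a heart and muscle gene in mammals, markers of both are set beside it. At 24 h 5 of the 7 measured skeletal muscle markers were lower in PCSK7 plus p53 embryos, where 25.8% of all genes were lower and 21.0% higher. Among the 5 were the light chain gene mylz3 (-0.97) and the troponin gene tnnt3b (-0.92), while the myosin gene myhz2 was higher (1.19). The log2 of the summed level of the 7 markers ran from 8.71 to 9.08 in controls and from 8.35 to 8.57 in the other group. All 7 were above background on every array of both groups. Of the 2 heart markers measured none was called, with 0.46 for the troponin gene tnnt2a (adjusted p = 0.075) and -0.04 for the myosin gene myl7 (adjusted p = 0.95). Of the complex IV isoforms used in mammalian muscle, cox7a1 had a change of 0.00 (adjusted p = 0.989) and cox6a2 of 0.61 (adjusted p = 0.462, and 0.00293 without morpholino 6 h replicate 1). The part of muscle or heart content in the slc25a4 result was not tested.

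The next falls at 24 h were in atp5mea (ATP synthase subunit e, -0.48, second probe -0.58), ndufv1 (the NADH-binding core subunit of complex I, -0.44) and ndufs5 (an accessory subunit, -0.43). The call for ndufs5 was lost under quantile normalization (adjusted p = 0.118) and without morpholino 24 h replicate 3 (adjusted p = 0.0519). The largest rise was in cox4i2, from -2.35, -2.24 and -2.73 to -1.89, -1.80 and -1.58, which is 0.69 (SE 0.19, adjusted p = 0.013), with its second probe also at 0.69. It was not called without control 24 h replicate 3 (adjusted p = 0.0521). Its partner cox4i1 had a change of -0.06 (adjusted p = 0.572), but was called higher under quantile normalization (0.27, adjusted p = 0.0124). The small complex I subunit ndufa1 rose by 0.55, the assembly factor sdhaf3, which helps the iron-sulfur subunit of complex II, by 0.45, and ndufs6 and cox5b2 by 0.38 each. The 2 dimmer probes of cox5b2 had -0.19 and -0.13, and the mean of its probes was not called (adjusted p = 0.954). The complex I assembly factor ndufaf7 rose by 0.57 on its brightest probe and fell by 0.50 on the other, so no direction can be given for it.

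**Figure D3:**
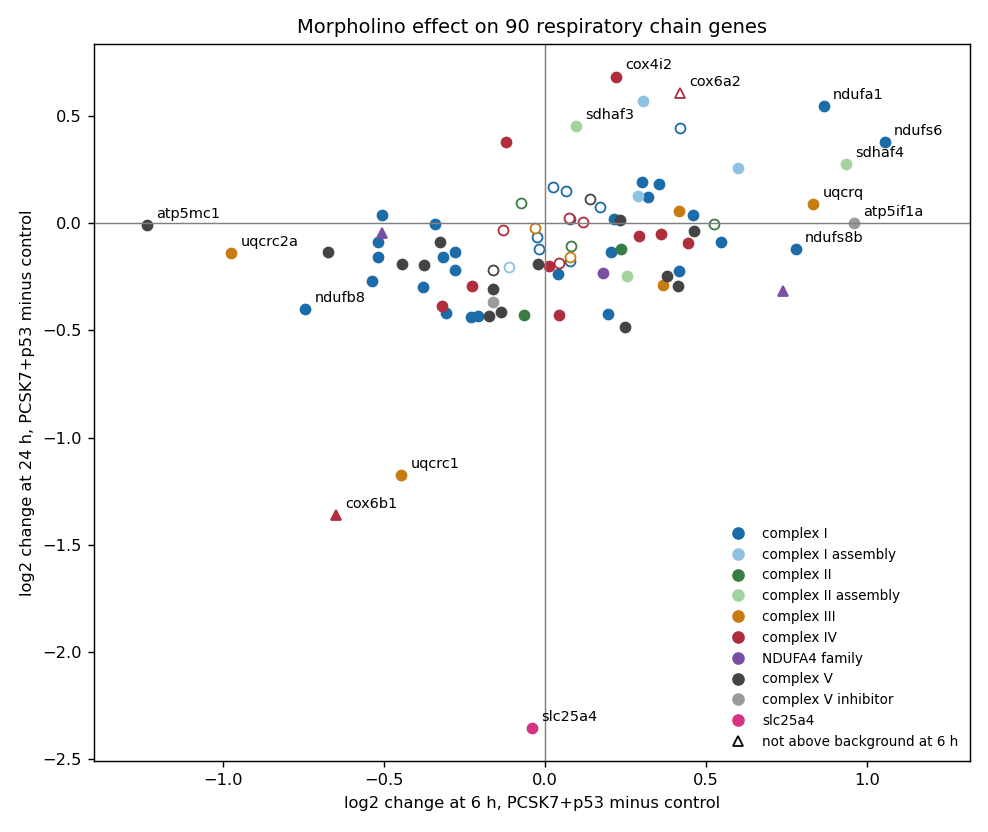
Log2 change in PCSK7 plus p53 against control embryos at 6 h (horizontal axis) and 24 h (vertical axis), 1 symbol per gene, coloured by complex. Filled symbols were called at 1 age or both, and triangles mark the 4 genes not well above background at 6 h. Genes spread along the horizontal axis from -1.23 to 1.06, while at 24 h slc25a4, cox6b1 and uqcrc1 stand below the rest.

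Calls at the 2 ages compare different arrays but share an estimate of each gene's spread from all 12 arrays, so they are not independent. They crossed as follows. Among the 30 genes higher at 6 h, 7 were also higher at 24 h, 6 were lower and 17 were not called. Among the 24 genes lower at 6 h, 13 were also lower at 24 h, none was higher and 11 were not called. Of the 13, cox6b1 was not well above background at 6 h. The 6 h calls of cox6b1, cox7a2a, atp5f1d and ndufv1 were lost in 10, 9, 8 and 8 of the 12 fits that left out 1 array. Over all genes, 31.2% of those higher at 6 h were also higher at 24 h and 17.9% were lower, and of those lower at 6 h 37.1% were also lower and 14.9% were higher. Quantile normalization gave 10 higher and 3 lower at 24 h of 31 members higher at 6 h, and 2 higher and 8 lower of 26 members lower at 6 h. Higher at both ages were ndufa1, ndufa5, ndufab1a, ndufs6 and the assembly factors ndufaf1 and sdhaf4, and on its brightest probe also ndufaf7, whose other probe was called lower at 24 h and whose mean of probes was 0.036 there (adjusted p = 0.754). The 24 h call of ndufab1a was lost in 4 of the 12 fits that left out 1 array. Higher at 6 h and lower at 24 h were atp5f1b, atp5md, ndufa3, ndufb11, sdhaf2 and uqcrh. The 24 h fall of uqcrh was not called under quantile normalization (-0.11, adjusted p = 0.138). For atp5f1b the fall at 24 h rests on the probe chosen, since another of its 5 probes was called higher at 24 h (0.27), and the mean of its probes was 0.015.

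The difference between the effect at 24 h and that at 6 h, which equals the difference between the developmental changes of both kinds of embryo, was tested for each gene. It was positive for 13 genes and negative for 31, where 22.4% and 27.9% of all genes were called, and quantile normalization gave 19 and 23. The median difference was -0.18, against -0.04 for all genes and -0.049 under quantile normalization. The carrier slc25a4 had -2.32 (SE 0.22, adjusted p = 3.54e-05). Positive differences of 1.22 (SE 0.11, adjusted p = 2.28e-05) and 0.84 (SE 0.11, adjusted p = 0.000202) in atp5mc1 and uqcrc2a came with 6 h falls. At 24 h their changes were -0.01 and -0.14 and were not called (adjusted p = 0.931 and 0.166). The uqcrc2a groups still did not overlap there, with 4.09, 4.06 and 4.10 against 4.26, 4.14 and 4.26 in controls. The negative differences of atp5if1a (-0.96) and ndufs8b (-0.90) came from 6 h rises with 24 h changes of 0.00 and -0.12 (adjusted p = 0.999 and 0.455). For ndufa4b the difference of -1.05 used 6 h signals below background and turned to 0.21 with the local background subtracted.

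Isoform and paralog pairs were read side by side within each gene's own scale. In 3 pairs the copies took different courses through development: ndufs8b fell while ndufs8a rose, ndufa4b and cox6b1 appeared from below background while ndufa4a and cox6b2 were well above background at both ages. At 6 h 1 member was called in the main scaling of each of the pairs uqcrc2a and uqcrc2b, atp5if1a and atp5if1b, and atp5mc1 and atp5mc3b, with values of -0.97 and -0.03, 0.96 and -0.16, and -1.23 and -0.16. Other scalings also called atp5if1b and atp5mc3b lower at 6 h. Their values were -0.19 and -0.21 under quantile normalization (adjusted p = 0.0323 and 0.0265) and -0.23 and -0.24 under cyclic loess (adjusted p = 0.0128 and 0.00906). The third c-ring gene, atp5mc3a, rose by 0.23. At 24 h the complex II anchor sdhdb fell by 0.43 and sdhda was not called (adjusted p = 0.993). The subunit genes cox6a1, cox7a2a and cox7a2l were lower by small amounts at 24 h (-0.39, -0.29 and -0.20), and none of the 3 was called lower under quantile normalization (adjusted p = 0.147, 0.385 and 0.302). The differences between members of a pair were not tested.

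**Figure D4:**
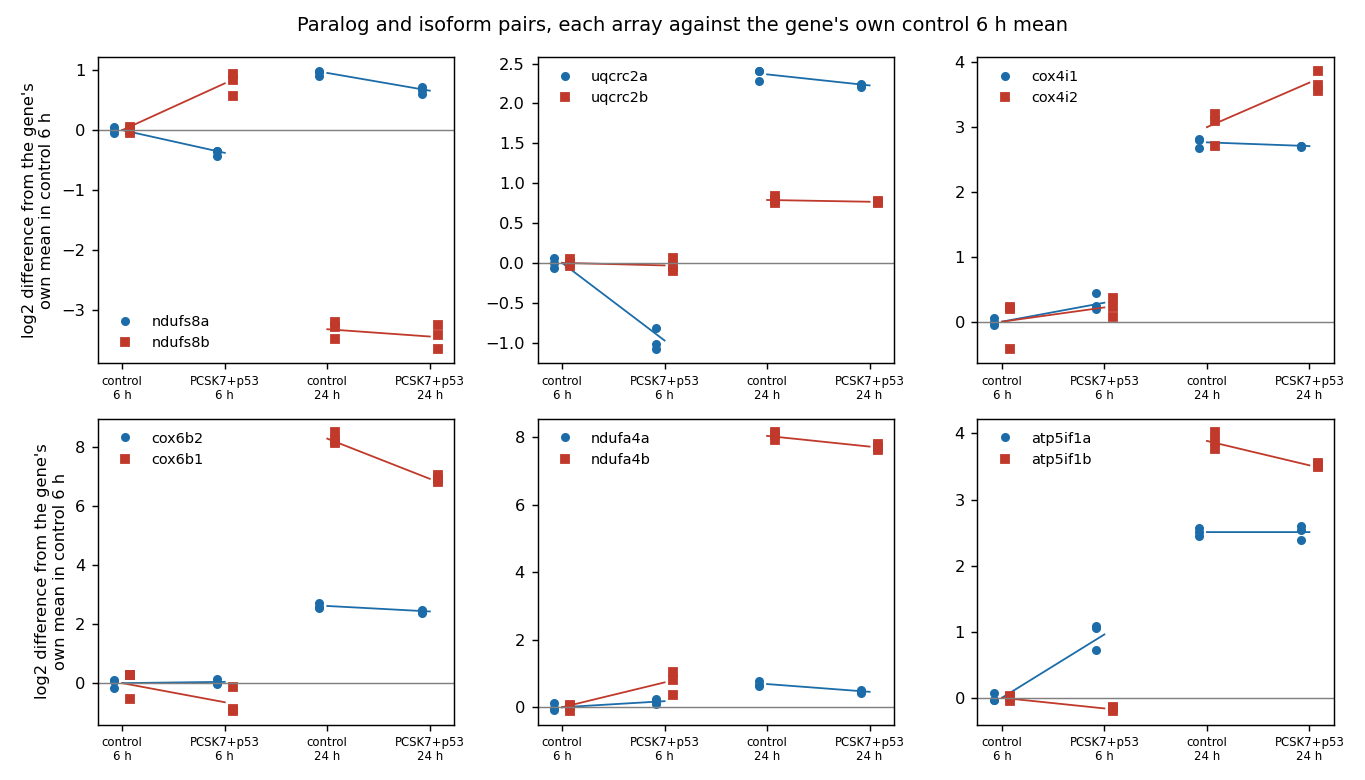
Difference of each array from the gene's own mean in the control 6 h group (log2, vertical axes) for 6 pairs of related genes in the 4 groups (horizontal axes). Symbols are arrays and lines join group means of the same age, and at 6 h the probes of cox6b1 and ndufa4b were not well above background. The lines of ndufs8a and ndufs8b separate at 6 h and lie on opposite sides of 0 at 24 h.

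Of the 90 genes, 45 had at least 2 usable probes. Within these genes all probes had the same sign in 44 over control development, in 43 over development of the PCSK7 plus p53 embryos, and in 33 for the morpholino effect at 6 h as at 24 h. Probes that were called in opposite directions belonged to sdha (-0.37 and 0.54), ndufv1 (-0.25 and 0.27) and uqcrfs1 (-0.21 and 0.80) at 6 h, and to atp5f1b and ndufaf7 at 24 h. The brightest probes of sdha and uqcrfs1 had 0.08 each at 6 h and were not called. For these genes the arrays give no single direction.

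Other genes of energy metabolism are set beside the shares of all genes called, which were 48.1% higher and 43.1% lower over control development, 32.0% and 30.9% at 6 h, and 21.0% and 25.8% at 24 h. Outside the rule, 36 further genes of the chain, its cytochrome c, its coenzyme Q pathway and its assembly were measured. In control embryos 23 of them rose and 8 fell from 6 h to 24 h with a median of 0.65, and at 24 h 15 were higher and 5 lower in PCSK7 plus p53 embryos, with a median of 0.10. The electron carrier cytochrome c (cycsb) rose by 2.09 over development and by 0.53 at 6 h under the morpholino mix. The complex III subunit cyc1 rose by 1.38 over development and was lower at 24 h (-0.19). A list of 19 genes covered the TCA cycle together with pyruvate dehydrogenase, pyruvate carboxylase and cytosolic malate dehydrogenase genes. Of these 16 rose and none fell over development, with a median of 1.16. Of 27 glycolysis genes 13 rose and 7 fell with a median of 0.21, and at 6 h 6 were higher and 13 lower under the morpholino mix, with a median of -0.19. Of 8 regulators of mitochondrial number and transcription 3 rose and 3 fell over development. The mitochondrial transcription factor tfam rose by 2.12 and nrf1, an activator of many respiratory chain genes in mammals, fell by 1.44.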

How the data were processed

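RNA of 12 embryo pools was measured on 1-colour arrays. The deposited scanner files hold each spot's processed intensity on a linear scale, per the file headers background-subtracted by Agilent Feature Extraction (builds 10.7.1.1 for controls and 10.7.3.1 for morpholino arrays), and the submitters' processing notes name version 10.7.1. The authors' deposited table (19838 probes, linear intensity, 88 of the 90 genes, every column with the median 172.1) ranked probes as the matching array did (r = 1.0) and had 0 columns without a sample. How it was normalized is not given in these sources, and it served as an alternative only. Spots of a probe were averaged, log2 was taken and the array's 75th percentile subtracted. A probe was kept if 1 group or more had it well above background on each of its 3 arrays and no array lacked a value (36686 of 43603). Gene names came from RefSeq accessions (33678 probes with one, 26854 named, assembly GRCz12tu). The headers name array builds danRer5 and danRer7, so no coordinates are printed. The brightest probe stands for a gene. All comparisons used lmFit and eBayes of limma 3.58.1 under R 4.3.3 (two-sided, 8 residual degrees of freedom) with Benjamini-Hochberg adjustment over kept probes. Named genes were drawn from the 6 largest called rises and falls per comparison, core subunits and isoform pairs. They were also drawn from the 6 largest differences between ages and genes with opposed probes. Others were named after their values were seen, and several members are counted but not reported singly here. The members, lists and tests were chosen with earlier results of these data known. Lower bounds divide the bright group's mean by that of the lowest signal well above background on each dim array. The fit was tested on simulated data. Alternatives covered background, scaling, filters, probe summary, blocks and leaving out each array.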

Additional observations from a re-analysis of the deposited data

Results flagged for a closer look

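All results listed here had a morpholino effect at 24 h that differed from the effect at 6 h, by limma's test of the difference itself (adjusted p under 0.05 over all usable probes). The effects at the 2 ages come from separate arrays, and each morpholino group lay on 1 slide, so a difference between slides cannot be told apart from it. The effect was higher at 24 h for 13 of the 90 genes and lower for 31, where 22.4% and 27.9% of all genes were called. Under quantile normalization the counts of both directions lay closer together, as given above.

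Among the genes with a lower morpholino effect at 24 h than at 6 h were slc25a4 (-2.32, adjusted p = 3.54e-05), ndufa4b (-1.05, adjusted p = 0.00218), atp5if1a (-0.96, adjusted p = 0.000458), ndufs8b (-0.90, adjusted p = 0.00211), uqcrq (-0.74, adjusted p = 0.000503), atp5mea (-0.73, adjusted p = 0.00558), uqcrc1 (-0.73, adjusted p = 0.000317), ndufs6 (-0.68, adjusted p = 0.00112) and sdhaf4 (-0.66, adjusted p = 0.000637). The gene slc25a4 was lower than in controls at 24 h and not called at 6 h, while uqcrc1 was lower at both ages (-0.45 at 6 h and -1.18 at 24 h). In atp5if1a, ndufs8b, uqcrq, ndufs6 and sdhaf4 a rise at 6 h was smaller or not called at 24 h. The probe of ndufa4b was not well above background at 6 h.

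Among the genes with a higher morpholino effect at 24 h than at 6 h were atp5mc1 (1.22, adjusted p = 2.28e-05), uqcrc2a (0.84, adjusted p = 0.000202), atp5pd (0.54, adjusted p = 0.00855), cox5b2 (0.50, adjusted p = 0.0204), sdhaf3 (0.36, adjusted p = 0.0208), ndufb8 (0.34, adjusted p = 0.0158) and ndufb2 (0.27, adjusted p = 0.0431). All of those listed except cox5b2 and sdhaf3 had a called fall at 6 h. The dimmer probes of cox5b2 had changes of the other sign at 24 h.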

How the results depend on the processing

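Values of single named genes were compared over 12 alternative settings, 12 fits that each left out 1 array and a subset of members. Of these, 5164 stayed called or not called as before, 192 lost the call, 62 gained it and 24 called values turned in sign. Sign changes of values not called in the main fit are not among the 24. Some that gained a call changed sign, such as cox4i1 at 24 h (-0.06, and 0.27 under quantile normalization). Over these settings 81 to 89 genes rose in control and 78 to 88 in morpholino development (the authors' table holds 88 genes), while the tilt at 24 h changed. Scaling moved the median of all probes over control development from 0.04 to -0.28 (quantile) and -0.41 (local background), and that of the 6 h comparison to -0.30 (local background). Where no value shows it, the cause was not tested.

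With quantile normalization the 24 h comparison had 20 higher, 16 lower and a median of 0.013, the difference between ages a median of -0.049, control development 4 lower and 1.83, and morpholino development 5 lower and 1.73. Turned were atp5fa1 (0.067) and atp5f1b (0.11) at 24 h, cox4i1 (0.019) and atp5f1d (0.025) in the difference, atp5mc1 (-0.77) and atp5fa1 (-0.66) in control and atp5fa1 (-0.68) and atp5f1b (-0.27) in morpholino development. The authors' deposited table gave, in the same order, counts of 22 and 17 with 0.019, a difference of -0.033, 4 lower with 1.81 and 4 lower with 1.76. It turned atp5fa1 (0.11) and atp5f1b (0.15) at 24 h, cox4i1 (0.077) in the difference, atp5mc1 (-0.52) and atp5fa1 (-0.45) in control and atp5fa1 (-0.43), atp5f1b (-0.089) and slc25a4 (-0.20) in morpholino development. Cyclic loess gave 20 lower at 24 h with -0.035, a difference of -0.054, 3 lower in control development, and 1 lower with 2.02 in morpholino development. It turned atp5fa1 at 24 h (0.023), atp5mc1 (-0.36) and atp5fa1 (-0.26) in control and atp5fa1 (-0.13) in morpholino development.

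Local background subtraction plus 50, chosen after seeing the data because the planned normexp correction diverged on 3 arrays (fitted background means of -684, -541 and -1130) and was not run, gave 2 lower and a median of 1.87 in control and 1.76 in morpholino development, with ndufa4b at 0.21 in the difference and sdhda at -0.15 in control development. The percentile over probes detected on all arrays gave medians of 2.26 and 2.07 with 1 lower, the mean of probes 2.26 and 2.03 with 1 lower, atp5f1b at 0.015 at 24 h and ndufaf2 at 0.33 in morpholino development. Probes above background on all 12 arrays, as a filter or within the fit, gave 2.07 in control development. Leaving out 1 array at a time gave 1 to 2 lower in control development (2 without control 24 h replicate 1) and 24 h medians from -0.16 (without control 24 h replicate 2) to -0.079 (without the first array of the morpholino 24 h group).

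Same-numbered arrays of different groups did not deviate together (18 pairs, r from -0.05 to 0.02). The numbers do pair the control arrays by slide, since those of 6 h and 24 h with the same number shared a slide. A replicate block gave 29 higher and 21 lower at 6 h, 7 and 26 at 24 h, 11 and 27 in the difference, 88 and 1 in control and 86 and 2 in morpholino development. The 6 genes not above background on all arrays (cox6a2, cox6b1, ndufa12, ndufa4b, ndufa4l2a, sdhda) have uncertain values at 6 h.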

Other observations

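Protein synthesis and breakdown genes were counted beside the respiratory chain, and over all genes 48.1% rose and 43.1% fell in control development. In control embryos 58 of 65 measured genes of the mitochondrial ribosome rose from 6 h to 24 h and 3 fell, with a median of 1.42, and of 81 cytosolic ribosome genes 80 rose and 1 fell, with a median of 2.92. Of 45 proteasome subunit genes 38 rose and 6 fell.

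Over all genes 21.0% were called higher and 25.8% lower under the morpholino mix at 24 h, and 32.0% and 30.9% at 6 h. At 24 h 34 mitochondrial ribosome genes were higher and 5 lower, with a median of 0.21, and under quantile normalization 40 were higher and 4 lower. For the cytosolic ribosome 1 gene was higher and 74 were lower with a median of -0.40, but quantile normalization gave 10 higher and 12 lower with a median of -0.01. At 6 h 54 cytosolic ribosome genes were higher and 5 lower, with a median of 0.30, and quantile normalization gave 56 and 5.

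The lens crystallin markers were lower at 24 h under the morpholino mix in 2 of 2 genes measured, and 4 of 6 gastrula markers were higher and none lower. Of all genes 21.0% were higher and 25.8% lower. Among the 4, szl (1.14) was not well above background on any array of either group at 24 h.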
